A study of Rattus norvegicus with 6 samples.

Results

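The genes described here encode the proteasome, the barrel-shaped protease that degrades ubiquitin-tagged proteins. They were chosen as the protein-coding rows of the count table whose symbol runs from Psma to Psmg and carries a digit, which gave 50 of 19825 genes. RNA was sequenced from H9C2, a rat myoblast line of embryonic heart origin (cardiomyocytes in the labels), in 2 groups of 3 libraries. The NC libraries (1, 2 and 3) came from cells given an empty vector as inhibition control, and the siPUM2 libraries (1, 2 and 3) from cells transfected with small interfering RNA against PUM2, a Pumilio-family protein that binds messenger RNA. The labels name no other agent, time or dose, do not mention a control small interfering RNA, and leave it unstated whether a group's libraries were separate cultures. The p-values therefore reflect the spread among these libraries alone, which may be technical.

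The core particle is a stack of rings in which alpha subunits form the outer gates and beta subunits carry the cutting sites. The regulatory particle caps the core, recognises ubiquitin chains, removes them and uses a ring of ATPases to unfold and feed in the substrate. Cells exposed to interferon can replace the catalytic beta subunits with inducible versions to form the immunoproteasome, which favours peptides for display on MHC class I, and other caps (the PA28 family and PA200) can take the place of the regulatory particle. In many cells the transcription factor NRF1, encoded by Nfe2l1, raises the proteasome genes together when proteasome activity falls, and it acts through antioxidant response elements in their promoters.

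The 50 members comprised 8 alpha-ring genes, 7 constitutive beta-ring genes, 4 inducible or thymic beta genes, 6 regulatory particle ATPases, 11 non-ATPase subunits, 3 regulatory particle assembly chaperones, 5 genes of alternative caps and the inhibitor PI31, and 4 core assembly chaperones. The remaining 2, Psmc3ip and Psme3ip1, encode proteins named for binding a subunit and are not proteasome subunits. Adrm1 and Sem1, which encode regulatory particle subunits, fall outside the symbol rule and are given with the associated proteins.

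The libraries held 27704702 to 30579237 counts. Pum2 itself measured 223, 228 and 225 CPM (counts scaled to library size and composition) in NC 1, 2 and 3 and 127, 126 and 120 CPM in siPUM2 1, 2 and 3, which left 55.1% of the control level. Of the markers that define heart muscle cells, Myh7, Actn2, Ryr2, Tnni3, Myl2, Myl3 and Myl7 were at most 6 counts in each library. Myh6 had 5 to 21 counts, and Nppa was not matched in the table. The heart genes Nkx2-5 (19.7 CPM in NC), Gata4 (10.4 CPM) and the troponin Tnnt2 (298 CPM) were measured. So were the skeletal myoblast genes Myod1 (81.3 CPM in NC) and Cdh15 (215 CPM). Of the skeletal list Chrna1 had 3 to 13 counts, and Myf5 and Pax7 were not matched. The heart list summed to 642 to 731 CPM in NC and 926 to 1033 CPM in siPUM2 (mostly Tnnt2 and Tnnc1) and the skeletal list to 373 to 384 and 392 to 416 CPM. Of 7 tested heart markers 3 were called higher (Tnnt2, Tnnc1 and Pln) and none lower. The others were not called and went both ways. Their log2 fold changes (siPUM2 minus NC) were 0.34 for Nppb, -0.14 for Nkx2-5, -0.12 for Gata4 and -0.58 for Myh6. Of 7 tested skeletal markers 3 rose (Cdh15, Mymk and Des) and 3 fell, among them Myog, a regulator of muscle differentiation, from 20.1 ± 4.23 to 9.23 ± 0.44 CPM (log2 fold change -1.12, adjusted p = 1.86e-09, edgeR), Tnnt3 and Myh3. Of 5 tested fibroblast markers 2 rose (Thy1 and Vim) and 2 fell (Postn and Col1a1). That list summed to 20090 to 20170 CPM in NC and 19800 to 20240 CPM in siPUM2. Its highest genes were Col1a1 (8452 CPM in NC) and Col1a2 (7780 CPM), while Dcn, Lum and Pdgfra had at most 6 counts in each library. Beside these counts, 15.1% of all genes tested were called higher and 13.3% lower (edgeR). The part of the markers in the results was not tested.

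Promoter sequences of proteasome genes are shown first, because the members are known to be controlled together. The RefSeq promoter table (build GRCr8) held 45 of the 50 members. Psmd14, Psmb11, Psmd6, Psmd12 and Psma7 had no entry. The 250 bases before the start are printed for the 4 members with the lowest p in the comparison below, all lower in siPUM2, 5′ to 3′ on the gene's strand. Capitals mark matches, on either strand, to CCAAT (the box bound by NF-Y), to the antioxidant response element core TGACNNNGC or to the interferon-stimulated response element core (GAAA, 2 bases of any kind, then GAAA).
Psmd3, chr10:84139688-84139937, + strand: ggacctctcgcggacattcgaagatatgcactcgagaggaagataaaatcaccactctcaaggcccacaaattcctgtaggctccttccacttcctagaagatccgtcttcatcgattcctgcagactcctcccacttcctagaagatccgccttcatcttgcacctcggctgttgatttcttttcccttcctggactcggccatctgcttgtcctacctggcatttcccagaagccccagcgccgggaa
Psme3, chr10:86757683-86757932, + strand: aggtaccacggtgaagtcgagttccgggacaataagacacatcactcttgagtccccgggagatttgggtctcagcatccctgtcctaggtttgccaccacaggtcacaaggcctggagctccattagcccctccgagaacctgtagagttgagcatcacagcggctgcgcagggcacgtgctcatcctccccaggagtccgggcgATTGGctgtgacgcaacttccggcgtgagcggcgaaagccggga
Psmc3, chr3:97487393-97487642, + strand: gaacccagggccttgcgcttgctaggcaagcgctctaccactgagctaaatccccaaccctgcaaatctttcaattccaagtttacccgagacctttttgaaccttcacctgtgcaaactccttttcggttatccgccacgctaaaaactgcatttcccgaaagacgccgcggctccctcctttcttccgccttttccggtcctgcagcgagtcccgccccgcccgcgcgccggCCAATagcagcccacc
Psma3, chr6:95219499-95219748, + strand: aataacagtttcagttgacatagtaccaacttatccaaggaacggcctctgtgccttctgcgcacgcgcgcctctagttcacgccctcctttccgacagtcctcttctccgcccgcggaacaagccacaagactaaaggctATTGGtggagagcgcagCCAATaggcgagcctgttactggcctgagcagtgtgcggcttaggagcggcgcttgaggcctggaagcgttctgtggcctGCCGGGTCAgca

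These 4 promoters differed in what they held. Psma3 had CCAAT matches in both orientations and an antioxidant element core beside its start, Psme3 and Psmc3 each had a CCAAT match, and the printed part of Psmd3 had none. Over the window from 250 bases before to 50 after the start, CCAAT was matched in 23 of 45 members (51.1%) and in 38.0% of the 21851 protein-coding promoters in the table. The antioxidant core TGACNNNGC was matched in 8 of 45 (17.8%, against 12.5%), and its looser form TGANNNNGC, which includes every match of the core, in 23 of 45 (51.1%, against 40.9%). These shares are descriptions of letters in a window and carry no test.

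Antioxidant element cores are printed for the 6 matched members of the rings and the regulatory particle (Psmd9 and Psme4 matched too), as 30-base stretches with the match in capitals, because Nfe2l1 rose in these cells (below).
Psma3, chr6:95219727-95219756, + strand: tctgtggcctGCCGGGTCAgcaccatgagc
Psmb2, chr5:144254980-144255009, + strand: cccgcgccaaTGACCGGGCggtcgcatatc
Psmb5, chr15:32047420-32047449, - strand: cgtgaagctgTGACGTCGCggcgttgcccg
Psmb6, chr10:55737854-55737883, + strand: ctaaagagagTGACGGAGCgctttacgacc
Psmd1, chr9:94157796-94157825, + strand: accagatctaTGACCTCGCgagaattataa
Psmd1, chr9:94157983-94158012, + strand: gtgaggggacTGACTGAGCagcgcacccgg
Psmd3, chr10:84139941-84139970, + strand: gtttgcagctGCTCGGTCAtcgtgcggccc

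Psmb5 and Psmb6 encode constitutive catalytic subunits and Psmb2 a noncatalytic beta subunit, and none of these 3 was called in the comparison. Psma3, Psmd1 and Psmd3 were called lower. The only match of Psmd3 (from base 14) and the second of Psmd1 (from base 23) lay after the start. In Psma3 and Psmd3 the match was on the other strand. Of the 8 members with a core match 3 were called lower, none higher and 5 were not called, and of the 37 without a match 5 were called lower, 2 higher, 29 were not called and 1 was not tested. Of all genes tested 13.3% were called lower and 15.1% higher.

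The interferon element core was matched in 7 of 45 members (15.6%) and in 3.7% of protein-coding promoters. Psma4, Psmb3, Psmd7 and Psmg4 are among those matched, and none of them was called. The matches of the inducible genes are printed because Psmb10 and Psmb8 were called in opposite directions.
Psmb10, chr19:50743346-50743375, - strand: aagcaaaggcGAAAGTGAAAgagaagatgc
Psmb10, chr19:50743290-50743319, - strand: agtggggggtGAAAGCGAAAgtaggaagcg
Psmb8, chr20:4657016-4657045, - strand: gtgctgtggcTTTCGCTTTCacttccttgt
Psme2, chr15:33052785-33052814, - strand: cctggagagtGAAAGCGAAAgctggggctg

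Psmb10 held a pair of matches on its own strand, Psme2 (a PA28 subunit gene) held 1, and the match of Psmb8 lay on the other strand across the start. The inducible gene Psmb9 held no match in this window.

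Most proteasome genes were not called. Of the 50 members 49 passed the filter on low counts, 8 were called lower and 2 higher in siPUM2 at an adjusted p under 0.05 (edgeR quasi-likelihood test, Benjamini-Hochberg adjustment over the 12985 genes tested), and 39 were not called. The share called lower, 16.3%, was near the 13.3% of all genes tested, and the share called higher, 4.08%, was below the 15.1% of all genes, a difference that was not tested. All siPUM2 libraries lay below all NC libraries in 10 members (20.4%, beside 19.2% of all genes) and above them in 2 (4.08%, beside 20.7%). The median log2 fold change (siPUM2 minus NC) was -0.02, beside 0.0011 over all genes tested. Of the 46 members at 10 CPM or more in NC, 15.2% were called lower and 4.35% higher. Over all 8711 tested genes at that level the shares were 18.0% lower and 19.2% higher. Without Psmc3ip and Psme3ip1, 7 of 47 tested members were called lower and 2 higher.

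**Figure D1:**
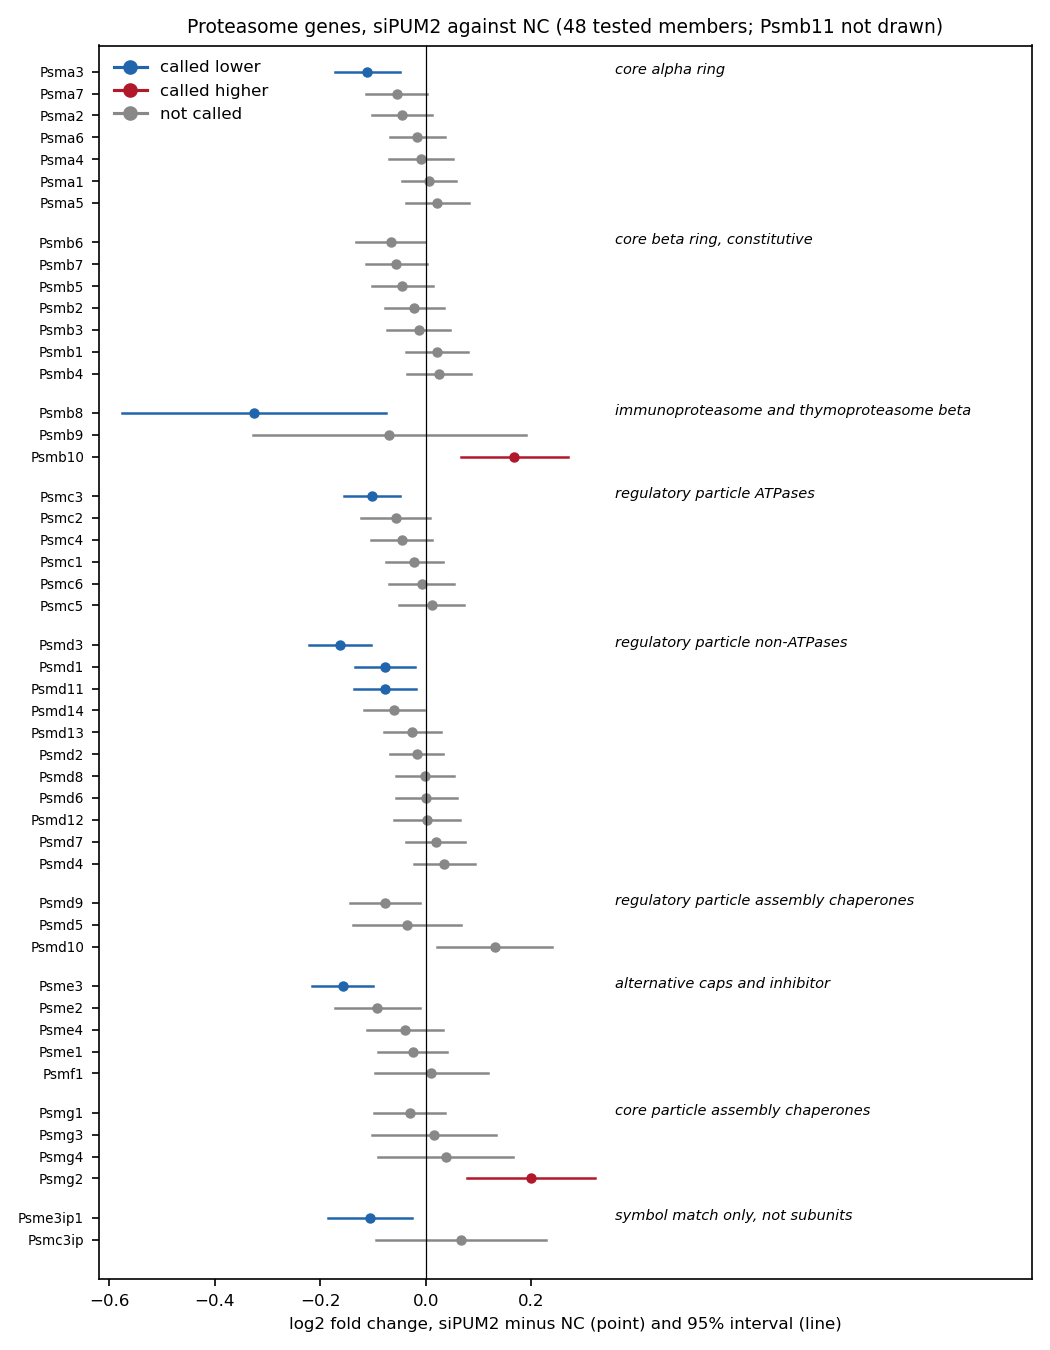
Log2 fold change of each tested proteasome gene except Psmb11 (x axis, siPUM2 minus NC; points, with the 95% interval of the fitted value as lines), grouped by role, with blue for genes called lower, red for genes called higher and grey for genes not called. Most points lie close to 0, the genes called lower are spread over several roles, and Psmb8, Psmb10 and Psmg2 lie farthest out.

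The changes were also narrow in range. Among the 46 members at 10 CPM or more in NC, 38 (82.6%) had a log2 fold change between -0.1 and 0.1, beside 53.4% of all 8711 tested genes at that level. The standard deviation of the log2 fold change over these members was 0.07, beside 0.16 over those 8711 genes. Both sets share the floor of 10 CPM, but their levels above it were not matched, and lower counts are noisier. The median standard error of a member was 0.03, and the 95% interval of 45 of the 46 stayed within 0.3 of 0 on the log2 scale, the exception being Psmg2, whose interval reached 0.32. In bulk RNA a change in the mix of cells and a change per cell cannot be told apart.

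The genes of the core alpha ring, which form the gates of the barrel, were abundant and level between the groups. Without the testis form Psma8 their mean FPKM in NC (fragments scaled to transcript length and library size, from the deposited table) ran from 70.9 for Psma3 to 198 for Psma1, a 2.79-fold range. Psma3 fell. It measured 163, 165 and 153 CPM in NC 1, 2 and 3 and 147, 146 and 152 CPM in siPUM2 1, 2 and 3, so the groups did not overlap but NC 3 and siPUM2 3 were less than 1 CPM apart. Its mean went from 160 ± 6.53 to 148 ± 3.29 CPM (SD, n = 3 each), a log2 fold change of -0.11 ± 0.03 (SE; adjusted p = 0.00559, edgeR).

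No other alpha gene was called. Psma7 measured 202, 200 and 194 CPM in NC and 186, 190 and 197 CPM in siPUM2 (log2 fold change -0.06, 95% interval -0.11 to 0.002; adjusted p = 0.145, edgeR). Psma2 measured 180, 182 and 171 CPM in NC and 171, 172 and 173 CPM in siPUM2, and Psma5 119, 119 and 114 CPM in NC and 119, 116 and 122 CPM in siPUM2. In all 3 genes the groups overlapped. Psma6, Psma4 and Psma1 had log2 fold changes of -0.02, -0.01 and 0.01. Psma8, the alpha subunit of spermatogenic cells, had 0 to 7 counts in each library and was not tested.

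The constitutive beta ring, which holds the cutting sites, had no called member among its 7 genes by edgeR, DESeq2 or limma voom. At an unadjusted p under 0.05 edgeR had 1 lower and none higher, and DESeq2 and limma voom had none. The mean levels in NC ran from 119 FPKM (Psmb1) to 199 FPKM (Psmb4), a 1.68-fold range. Psmb6, the caspase-like subunit, measured 111, 107 and 103 CPM in NC and 101, 99.2 and 106 CPM in siPUM2, with a log2 fold change of -0.07 (95% interval -0.13 to -0.001, adjusted p = 0.125, edgeR). Psmb7, the trypsin-like subunit, measured 200, 201 and 194 CPM in NC and 186, 189 and 198 CPM in siPUM2. Psmb5, the chymotrypsin-like subunit and the main target of proteasome inhibitor drugs, measured 193, 195 and 187 CPM in NC and 181, 183 and 193 CPM in siPUM2.

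In each of these catalytic genes siPUM2 1 and 2 lay below all NC libraries and siPUM2 3 lay among them. The noncatalytic Psmb4 measured 213, 211 and 199 CPM in NC and 208, 207 and 219 CPM in siPUM2, and Psmb2, Psmb1 and Psmb3 had log2 fold changes of -0.02, 0.02 and -0.01. Over the 14 constitutive core genes (Psma8 left out) every interval lay between -0.17 and 0.09.

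The inducible catalytic subunits were far below their constitutive partners and went in different directions. Psmb10, the inducible partner of Psmb7, was the highest of them. It measured 41.7, 43.1 and 43.8 FPKM in NC and 46.1, 46.5 and 51.5 FPKM in siPUM2, so every siPUM2 library was above every NC library. Its mean rose from 48.3 ± 1.11 to 54.3 ± 3.54 CPM (SD, n = 3; log2 fold change 0.17 ± 0.05, SE; adjusted p = 0.0104, edgeR). The call was lost without siPUM2 3, the highest library (log2 fold change 0.11, adjusted p = 0.0857), and without NC 1, the lowest (0.15, adjusted p = 0.0737).

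Psmb8, the inducible partner of Psmb5, was called lower, close to the threshold. It measured 5.63, 5.72 and 5.68 FPKM in NC and 3.51, 5.02 and 5.02 FPKM in siPUM2, or 193, 212 and 213 counts against 121, 171 and 180. The siPUM2 libraries all lay below NC, with siPUM2 1 much the lowest. The log2 fold change was -0.33 ± 0.12 (SE; adjusted p = 0.0452, edgeR), and -0.17 without siPUM2 1 (adjusted p = 0.330). Leaving out any NC library also ended the call (adjusted p = 0.0903 to 0.107), as did DESeq2 (adjusted p = 0.117).

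Psmb9, the inducible partner of Psmb6, measured 4.62, 4.4 and 5.49 FPKM in NC and 4.86, 4.15 and 4.8 FPKM in siPUM2, and the groups overlapped (log2 fold change -0.07, 95% interval -0.33 to 0.19). The thymic subunit Psmb11 had 5 to 17 counts in each library, and its interval of -0.71 to 1.07 leaves its direction unknown. On the per-length scale Psmb8 stood at 2.85% ± 0.06 of Psmb5 in NC and 2.34% ± 0.42 in siPUM2, Psmb9 at 3.96% ± 0.59 and 3.94% ± 0.27 of Psmb6, and Psmb10 at 23.7% ± 0.92 and 27.7% ± 0.88 of Psmb7 (SD, n = 3). The ratio of Psmb10 to Psmb7 was higher in every siPUM2 library (27.3%, 27.1% and 28.7%) than in any NC library (22.9%, 23.5% and 24.7%).

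**Figure D2:**
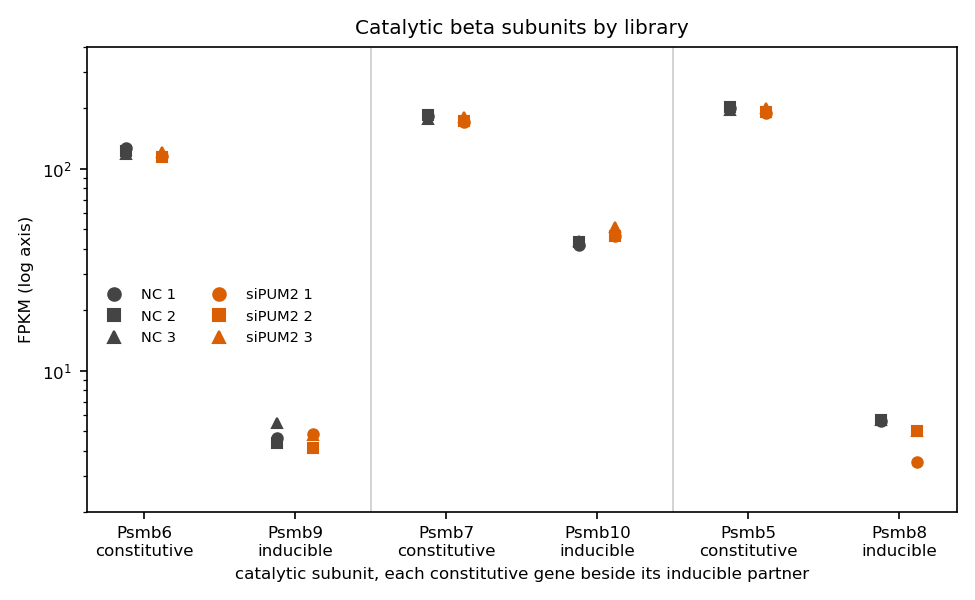
FPKM (y axis, log scale) of the constitutive catalytic subunits Psmb6, Psmb7 and Psmb5, each beside its inducible partner, in every library (grey, NC; orange, siPUM2; symbols give the library number). Psmb9 and Psmb8 lie near 5 FPKM against more than 100 FPKM for their partners, Psmb10 lies between 41.7 and 51.5 FPKM, and siPUM2 1 is the low point of Psmb8.

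Psmb8 and Psmb9 lie in the MHC region of chromosome 20, where the gene order of GRCr8 places them beside Tap1 and Tap2, which encode the transporter that carries proteasome products to MHC class I. Tap1 measured 25.5 ± 0.56 CPM in NC and 25.6 ± 1.5 CPM in siPUM2 (adjusted p = 0.934, edgeR), and Tap2 25.6 ± 0.20 and 25.1 ± 0.45 CPM (adjusted p = 0.782). Leukocytes carry inducible subunits without induction, so their markers were examined. Of 15 listed 9 were matched in the table and 7 of these were under 1 CPM in both groups, with Itgam at 0 in all NC libraries. Cd14 (36.0 CPM in NC) and Cd3e (2.99 CPM) were the exceptions, and of the 5 tested edgeR called 0, with 0 at an unadjusted p under 0.05. The list summed to 40.7 to 41.4 CPM in NC and 42.8 to 44.7 CPM in siPUM2, and its part in the values of Psmb8 and Psmb10 was not tested.

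The regulatory particle had 4 called genes among its 17 subunits, all lower. That is 23.5%, beside 13.3% of all genes and 18.0% of those at 10 CPM or more in NC. DESeq2 and limma voom each called 3 of the 17 lower, beside 11.4% and 13.5% of all genes. At an adjusted p under 0.01 edgeR called 2 of the 17 lower, beside 8.67% of all genes. Of its 6 ATPases, which form the ring that unfolds substrates, Psmc3 fell. It measured 269, 263 and 258 CPM in NC and 249, 244 and 243 CPM in siPUM2, so the groups did not overlap, and its mean went from 263 ± 5.33 to 245 ± 3.21 CPM (SD, n = 3; log2 fold change -0.10 ± 0.03, SE; adjusted p = 0.00366, edgeR). Psmc2 measured 242, 227 and 224 CPM in NC and 220, 212 and 233 CPM in siPUM2, with siPUM2 3 among the NC values. Psmc4 measured 169, 166 and 162 CPM in NC and 162, 165 and 155 CPM in siPUM2. Psmc1 measured 252, 250 and 245 CPM in NC and 238, 250 and 248 CPM in siPUM2. Psmc5 and Psmc6 had log2 fold changes of 0.01 and -0.01.

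Of the 11 non-ATPase genes, which encode the lid, the scaffold of the base and ubiquitin receptors, 3 fell and 8 were not called. Psmd3, a scaffold subunit of the lid, had the lowest p of all members. It measured 192, 182 and 180 CPM in NC and 167, 160 and 168 CPM in siPUM2, a gap of more than 10 CPM between the groups. Its mean fell 1.12-fold from 185 ± 6.48 to 165 ± 4.01 CPM (SD, n = 3; log2 fold change -0.16 ± 0.03, SE; adjusted p = 7.96e-05, edgeR).

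Psmd1, a large scaffold subunit of the base, and the lid subunit Psmd11 fell by less. Psmd1 measured 242, 231 and 227 CPM in NC and 221, 217 and 226 CPM in siPUM2 (log2 fold change -0.08, adjusted p = 0.0357, edgeR), with NC 3 and siPUM2 3 nearly touching. Psmd11 measured 124, 121 and 125 CPM in NC and 117, 114 and 119 CPM in siPUM2 (log2 fold change -0.08, adjusted p = 0.0418). Both calls were lost when single libraries were left out, Psmd1 without NC 1, NC 2, siPUM2 1 or siPUM2 2 (adjusted p = 0.0528 to 0.185) and Psmd11 without NC 1, NC 3, siPUM2 1 or siPUM2 2 (0.0948 to 0.185). Psmd11 also lost its call with DESeq2 (adjusted p = 0.106), limma voom (0.0662), no filter on counts (0.0713) and the replicate block (0.0631), and both genes lost theirs on log2(FPKM + 1).

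Psmd14, the deubiquitinase that strips ubiquitin chains from substrates, measured 119, 116 and 117 CPM in NC and 111, 112 and 114 CPM in siPUM2. The groups did not overlap, and the test was not passed (log2 fold change -0.06, 95% interval -0.12 to -0.004; adjusted p = 0.106, edgeR). The ubiquitin receptor gene Psmd4 had a log2 fold change of 0.04 and Psmd7, the partner of Psmd14, 0.02. Psmd2, the most counted member at 463 ± 6.32 CPM in NC, had -0.02, and its interval of -0.07 to 0.03 was the narrowest of the family. Psmd13 had -0.02, and Psmd12, Psmd8 and Psmd6 were within 0.01 of 0.

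Of the regulatory particle's 3 assembly chaperones none was called by edgeR or DESeq2, and limma voom called Psmd10 higher (adjusted p = 0.0390). At an unadjusted p under 0.05 edgeR had 1 lower and 1 higher. Psmd10, encoding gankyrin, measured 47.2, 42.8 and 42.0 CPM in NC and 47.1, 50.8 and 46.7 CPM in siPUM2, with NC 1 as high as siPUM2 1 (log2 fold change 0.13, adjusted p = 0.0678, edgeR). Psmd9 measured 94.0, 90.5 and 90.6 CPM in NC and 86.2, 84.1 and 90.3 CPM in siPUM2 (log2 fold change -0.08, adjusted p = 0.0750, edgeR), where siPUM2 3 lay just below the NC libraries. Psmd5 measured 49.6, 49.7 and 47.3 CPM in NC and 50.5, 47.1 and 45.4 CPM in siPUM2 (-0.04).

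Among the alternative caps Psme3, which encodes the nuclear cap PA28 gamma, fell. It measured 185, 177 and 182 CPM in NC and 165, 156 and 166 CPM in siPUM2, with all siPUM2 libraries below NC. Its mean fell 1.12-fold from 181 ± 3.97 to 162 ± 5.24 CPM (SD, n = 3; log2 fold change -0.16 ± 0.03, SE; adjusted p = 9.24e-05, edgeR). Psme3ip1, whose product binds PA28 gamma and which is in the list by its symbol only, also fell, from 65.5, 65.2 and 65.9 CPM in NC to 59.7, 62.8 and 60.2 CPM in siPUM2 (log2 fold change -0.11, adjusted p = 0.0406). That call was lost on leaving out any library but siPUM2 2 (adjusted p = 0.0756 to 0.162).

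The genes of the cytoplasmic cap PA28 were not called. Psme2 measured 69.1, 70.1 and 65.3 CPM in NC and 66.0, 62.3 and 63.5 CPM in siPUM2 (log2 fold change -0.09, adjusted p = 0.0844, edgeR), and Psme1 99.7, 96.2 and 97.8 CPM against 98.3, 91.8 and 98.4 CPM (-0.03). Psme4, encoding PA200, was the longest message and low per length (6.72 ± 0.16 FPKM in NC), with a log2 fold change of -0.04. The inhibitor gene Psmf1 had 0.01.

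Of the 4 core assembly chaperones Psmg2 rose and the others were not called. Psmg2, whose product pairs with that of Psmg1 to build the alpha ring, measured 24.6, 24.7 and 25.0 CPM in NC and 26.4, 28.7 and 30.1 CPM in siPUM2, so the groups did not overlap. Its mean rose from 24.7 ± 0.24 to 28.4 ± 1.87 CPM (SD, n = 3; log2 fold change 0.20 ± 0.06, SE; adjusted p = 0.0114, edgeR), and the call was lost without siPUM2 3 (0.15, adjusted p = 0.0790). Psmg1 measured 75.7, 78.1 and 76.1 CPM in NC and 74.9, 74.3 and 75.9 CPM in siPUM2 (log2 fold change -0.03). Psmg4 and Psmg3 had 0.04 and 0.02, and Psmc3ip, a meiotic recombination cofactor named for its partner, had 0.07.

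**Figure D3:**
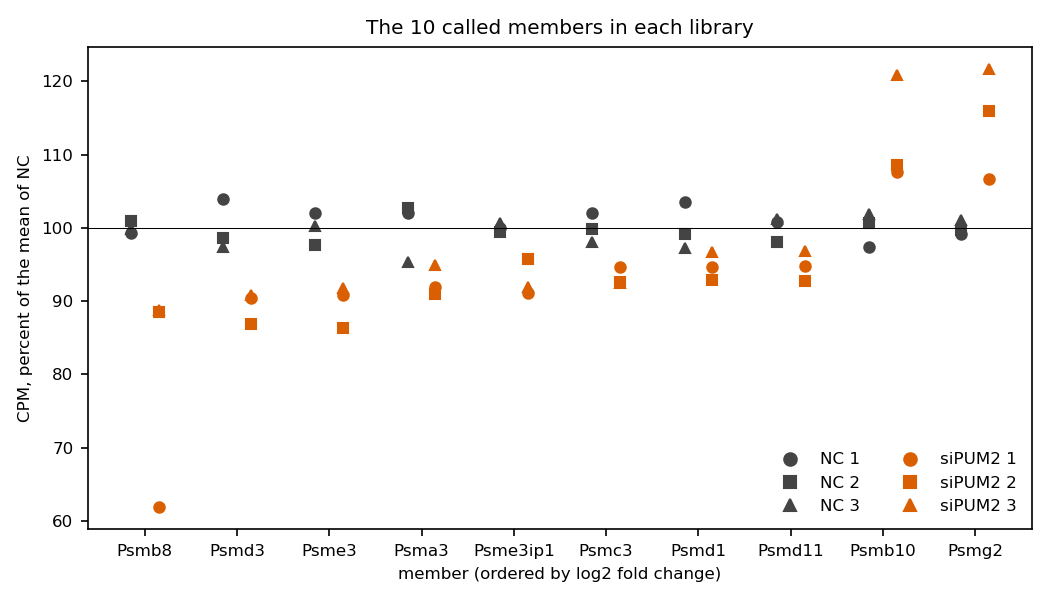
CPM of the 10 called members in each library as a percentage of the mean of NC (y axis; grey, NC; orange, siPUM2; symbols give the library number), ordered by log2 fold change. In 7 of the 8 genes called lower the siPUM2 libraries form a band within 15% of the NC mean, whereas Psmb8 has siPUM2 1 far below the others.

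Within each group the same library tended to be highest across the family. NC 1 was the highest NC library in 30 of the 46 members at 10 CPM or more, and siPUM2 3 the highest siPUM2 library in 29 of them. These 46 genes together took 0.699%, 0.687% and 0.673% of all counts, scaled by composition, in NC 1, 2 and 3 and 0.668%, 0.665% and 0.682% in siPUM2 1, 2 and 3, so the groups overlapped through NC 3 and siPUM2 3. Without siPUM2 3 the count of members called lower was 11 and of those called higher 1, and without NC 1 they were 4 and 2. The 11 were 22.4% of members, beside 13.2% of all genes called lower, and the 4 were 8.16%, beside 11.3%. Psmd3, Psme3, Psmc3 and Psma3 were called lower with every library left out in turn.

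The genes of proteasome control were examined from a list. Of 16 tested 2 rose, 4 fell and 10 were not called, beside 15.1% of all genes called higher and 13.3% lower, and the list's median log2 fold change was -0.01. Nfe2l1, encoding NRF1, had the lowest p of the list. It measured 208, 210 and 215 CPM in NC and 259, 268 and 265 CPM in siPUM2, a gap of more than 40 CPM. Its mean rose from 211 ± 3.55 to 264 ± 4.87 CPM (SD, n = 3; log2 fold change 0.32 ± 0.03, SE; adjusted p = 1.36e-10, edgeR). It was called higher under every alternative tried.

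The other called regulators were of several kinds. Ogt, the O-GlcNAc transferase known to stabilise NRF1 together with its partner Hcfc1, fell from 67.8 ± 2.26 to 58.4 ± 1.66 CPM (log2 fold change -0.22, adjusted p = 0.000146, edgeR), and Hcfc1 fell from 115 ± 1.84 to 102 ± 1.18 CPM (-0.17, adjusted p = 4.42e-05). The small MAF gene Maff, whose product can pair with NRF1, rose from 47.9 ± 1.82 to 54.0 ± 3.57 CPM (0.17, adjusted p = 0.00954). Foxm1 and the NF-Y subunit gene Nfyc also fell (-0.15 and -0.16). The enzymes that process NRF1 were not called, with log2 fold changes of -0.09 for the protease Ddi2, 0.08 for the deglycosylase Ngly1 and -0.02 for the segregase Vcp, and the related factor Nfe2l2 had 0.02.

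**Figure D4:**
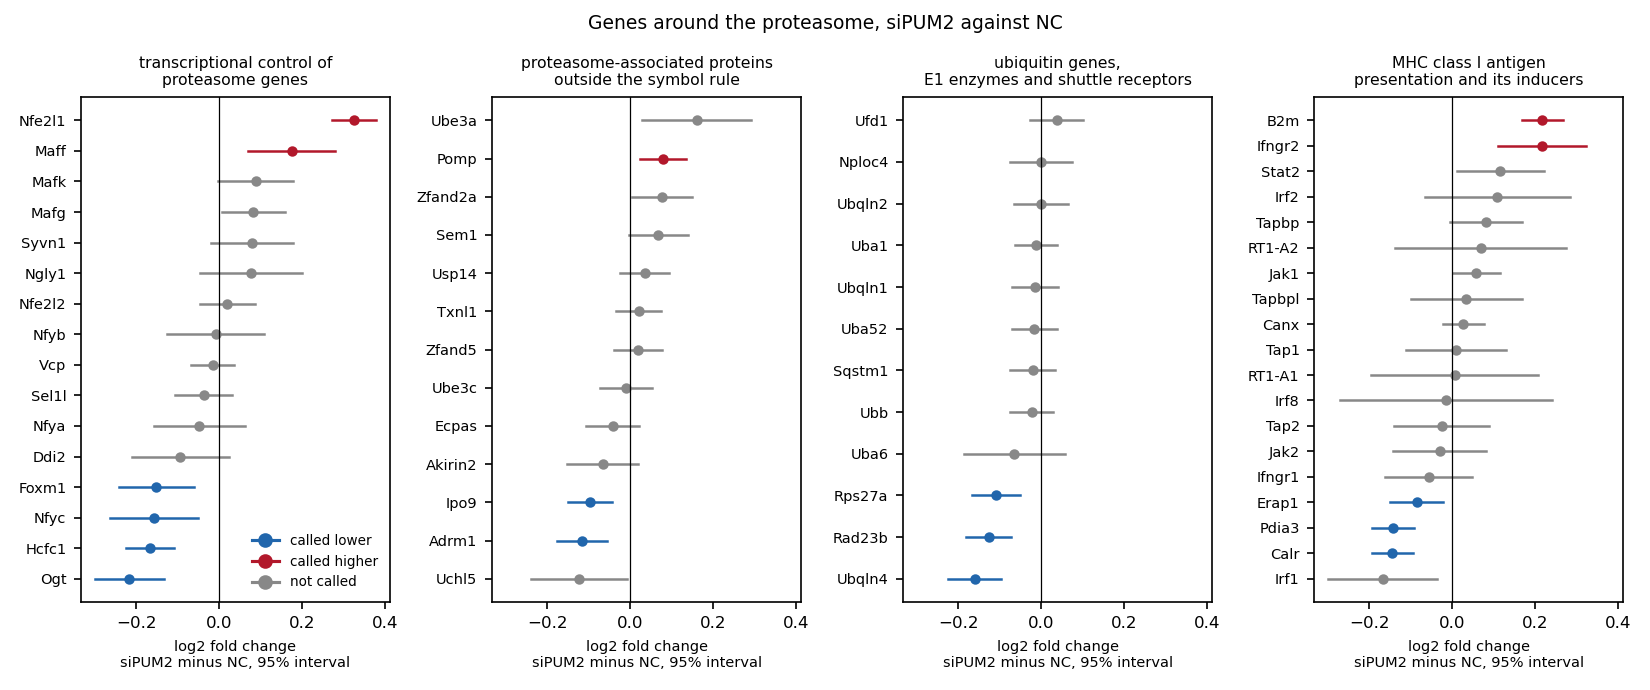
Log2 fold changes (x axis, siPUM2 minus NC) with 95% intervals for tested genes of 4 lists around the proteasome, without a few that are not reported here; blue marks genes called lower, red genes called higher and grey genes not called. Nfe2l1 is the farthest to the right of all, and most ubiquitin genes and associated proteins lie near 0.

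Proteins that work on the proteasome but fall outside its symbols were examined next. Of 13 tested 2 fell, 1 rose and 10 were not called (15.4% lower and 7.69% higher, beside 13.3% and 15.1% of all genes; median log2 fold change 0.02). Adrm1, a ubiquitin receptor of the regulatory particle, fell from 161 ± 5.4 to 148 ± 3.76 CPM (log2 fold change -0.12, adjusted p = 0.00311, edgeR), and Ipo9, which carries proteasomes into the nucleus, fell from 198 ± 0.57 to 185 ± 2.72 CPM (-0.10, adjusted p = 0.00467). Pomp, the maturation factor of the core, rose from 541 ± 9.27 to 572 ± 20.8 CPM (0.08, adjusted p = 0.0260), and lost its call without siPUM2 3 (0.05, adjusted p = 0.219), without NC 3 (0.104) or without NC 2 (0.0658). Ube3a had 0.16 and was not called (adjusted p = 0.0602). The regulatory particle subunit gene Sem1 and the deubiquitinase genes Usp14 and Uchl5 were not called either (0.07, 0.03 and -0.12).

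Of 14 genes for ubiquitin, its activating enzymes and shuttle receptors 3 fell and 11 were not called (median log2 fold change -0.02). The share called lower was 21.4%, beside 13.3% of all genes and 18.0% of those at 10 CPM or more in NC. None of the 14 was called higher by edgeR, DESeq2 or limma voom, and none rose at an unadjusted p under 0.05. The shuttle receptor genes Ubqln4 and Rad23b fell from 89.2 ± 2.19 to 79.8 ± 1.08 CPM (log2 fold change -0.16, adjusted p = 0.000258, edgeR) and from 236 ± 2.06 to 217 ± 5.93 CPM (-0.13, adjusted p = 0.000544). Rps27a, a ubiquitin and ribosomal protein fusion, fell from 897 ± 34.9 to 832 ± 26.1 CPM (-0.11, adjusted p = 0.00422). The polyubiquitin gene Ubb had -0.02 and was not called.

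Of 20 tested genes of MHC class I presentation and its inducers 2 rose, 3 fell and 15 were not called (10% higher and 15% lower, beside 15.1% and 13.3% of all genes; median log2 fold change 0.007). B2m, the invariant light chain, rose from 457 ± 6.89 to 531 ± 5.31 CPM (log2 fold change 0.22, adjusted p = 7.5e-08, edgeR), with all siPUM2 libraries above NC. The loading chaperones Calr and Pdia3 each fell by 0.14 on the log2 scale (adjusted p = 4.33e-05 and 5.78e-05), and the interferon gamma receptor chain Ifngr2 rose by 0.22 (adjusted p = 0.00193). Irf1, an inducer of the inducible subunits, measured 25.1, 27.1 and 30.3 CPM in NC and 23.7, 25.0 and 24.8 CPM in siPUM2. It just missed the threshold (log2 fold change -0.17, unadjusted p = 0.0142, adjusted p = 0.05004, edgeR). All its siPUM2 libraries lay below NC, but NC 1 (25.05 CPM) and siPUM2 2 (25.03 CPM) nearly touched. Nlrc5 and RT1-CE1 were too low to test.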

How the data were processed

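Polyadenylated RNA of 6 H9C2 libraries was sequenced in pairs from directional libraries, per the labels' protocols. HISAT2, DESeq2 and the build mRatBN7.2 appear in the submitters' processing notes. Counter and annotation: not given in the sources used here. Per the file headers and values, the authors deposited whole-number counts per gene and FPKM values rounded to 2 decimals.

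Counts were tested with edgeR 4.0.16 (quasi-likelihood) in R 4.3.3, with TMM factors (0.995 to 1.003), filterByExpr (12985 of 19825 genes kept) and group as the only term. Adjusted p-values are Benjamini-Hochberg values across every tested gene, with a threshold of 0.05. Standard errors come from the F statistic, and 95% intervals from them with the fitted degrees of freedom. The test was tested on simulated data. Levels are CPM with TMM scaling, where 1 count is worth 0.0326 to 0.0360 CPM. Levels of different members are compared with each other in FPKM. The most counted member, the marker list sums and the floor of 10 CPM are in CPM, which is not scaled to length. No 2 libraries agreed within counting noise (chi-square per degree of freedom 2.04 to 3.65 within groups). Alternatives used DESeq2 1.42.0 and limma 3.58.1.

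Members, roles, lists and the naming rule (all members; library values for the 4 lowest p of each role; 4 lowest p of each related list) were chosen with earlier results of these data known. Other genes named from the lists were chosen after their values were seen. Promoters came from RefSeq (GRCr8). The deposited tables use another build, so no coordinates were joined. A few genes counted in the lists are not reported here by name.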

Additional observations from a re-analysis of the deposited data

How the results depend on the processing

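The count of members called lower (8) was 8 or 9 with other scaling factors, 8 with a filter at 1 CPM in 3 libraries or with the length trend removed, and 6 without a filter on counts. It was 5 with DESeq2 and 5 on log2(FPKM + 1) or log2(FPKM + 0.1). The share of all genes called lower moved too. It was 13.3% to 15.1% with other scaling factors (members 16.3% to 18.4%) and 8.67% without a filter on counts (members 12%). With DESeq2 it was 11.4% (members 10.4%) and on log2(FPKM + 1) 11.4% (members 10.2%). On log2(FPKM + 1) without a filter 3 members were called lower (6%, beside 5.56% of all genes). There 0 were called higher (2 at an unadjusted p under 0.05), of 2246 genes called in all. At an adjusted p under 0.01 edgeR called 4 members lower (8.16%, beside 8.67% of all genes) and 0 higher. Leaving out each library in turn gave 4 to 11 members called lower, 1 to 2 higher, 3004 to 3538 genes called and a median log2 fold change of -0.03 to -0.01. The lowest count of 4 came without NC 1 or without siPUM2 1, and 5 without NC 2. The share of all genes called lower was 11.3% without NC 1 and 10.8% without siPUM2 1 (members 8.16% in both). Without siPUM2 3, which gave the count of 11, it was 13.2% (members 22.4%). The median stayed negative under every alternative, all of which reuse the same libraries. Between libraries of a group the members' median level had an SD of up to 0.035 on the log2 scale, larger than the main median of -0.02. With the replicate number as a block 7 members were called lower (14.3%, beside 13.5% of all genes) and 3 higher, of 3731 genes. Same-numbered libraries did not deviate together (r = 0.0342, 0.0204 and 0.0027), and not every library correlated best with its own number. The causes were not tested. The samples number 3 a group, and Psma8, Psmb11, Psmb8 and Psmb9 are limited by low counts.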

Other observations

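Near-copies of members listed under other names took few reads. LOC100361067, described as like the alpha 3 subunit, had 13 to 25 counts in each library, LOC100360846, like beta 6, had 9 to 24, and LOC100362709, like PA28 subunit 2, had 7 to 16. How many reads the copies share with Psma3, Psmb6 or Psme2 was not tested. RGD1564425 and RGD1560689, both similar to beta 3, had at most 8 counts.

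Over the 46 members at 10 CPM or more the log2 fold change had a Spearman rho of -0.29 with transcript length, taken from counts over FPKM, and of -0.09 with the FPKM level. The points share libraries, and these are descriptions. The median length of these members was 1667 bases, beside 3751 over all genes tested.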
